A study of Mus musculus with 4 samples.

Results

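The 10 genes of the immediate early response followed here, in fibroblasts with and without a mutated corepressor, were Fos, Fosb, Fosl1 and Fosl2 of the FOS family, Jun, Junb and Jund of the JUN family, and Atf3, Egr1 and Egr2. They were chosen by name from these transcription factor families, as 10 of the 18193 genes that had a named probe set. A probe set belonged to a gene when the platform annotation gave it that symbol alone, which held for 15 probe sets. A gene with 2 probe sets is represented by the one with the higher mean signal over the 4 arrays, its main probe set.

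The arrays measured total RNA of 3T3-MEFs, mouse embryonic fibroblasts carried by serial passage into a permanent line. They came from wild-type mice (2 arrays) and from mice with SMRTmRID (2 arrays), in which the corepressor SMRT is altered in the domains that bind nuclear receptors. All cells were undifferentiated, received no adipogenic stimulus and were harvested at confluence. The labels name no further allele or agent, and call the 2 arrays of a genotype technical replicates. The p-values therefore measure the spread between such arrays and not that between cell lines, embryos or cultures. In whole-culture RNA, fewer cells that carry a transcript and less of it per cell cannot be told apart.

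AP-1 is a dimer of basic leucine zipper proteins. JUN proteins pair with one another or with FOS and some ATF proteins, whereas FOS proteins need a partner of another family to bind DNA. Several of these genes are switched on within minutes by serum, growth factors or stress without new protein synthesis, and their transcripts decay fast, so resting cells hold little of them. Jund and Fosl2 are expressed more steadily. Egr1 and Egr2 encode zinc finger proteins of the same early response that bind GC-rich sites.

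Promoter sequences are shown for members of which levels are compared below. Bases in capitals match a searched motif, and the motifs are listed after the sequences. RefSeq (GRCm38.p6) windows were searched for 8 of the 10 members, from 250 bases before an annotated start to 50 from it. Fosl1 and Egr1 were not searched, which does not mean that RefSeq lacks a start for them. The last 130 bases before the start are printed 5′ to 3′ on the strand of the gene, for Fos (chr12:85473760-85473889, plus strand), Jun (chr4:95052223-95052352, minus), Fosl2 (chr5:32136342-32136471, plus), Jund (chr8:70697609-70697738, plus) and Atf3 (chr1:191183334-191183463, minus).
Fos: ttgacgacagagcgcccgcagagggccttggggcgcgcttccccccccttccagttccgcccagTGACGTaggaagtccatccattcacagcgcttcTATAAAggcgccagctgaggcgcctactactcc
Jun: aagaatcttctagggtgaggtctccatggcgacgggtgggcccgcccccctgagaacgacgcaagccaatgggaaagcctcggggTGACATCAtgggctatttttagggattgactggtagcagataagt
Fosl2: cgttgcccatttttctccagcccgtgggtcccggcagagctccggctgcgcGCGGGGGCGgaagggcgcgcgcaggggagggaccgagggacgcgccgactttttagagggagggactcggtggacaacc
Jund: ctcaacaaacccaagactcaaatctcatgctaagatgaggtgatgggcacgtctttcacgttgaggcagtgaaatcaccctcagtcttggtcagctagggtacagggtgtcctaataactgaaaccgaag
Atf3: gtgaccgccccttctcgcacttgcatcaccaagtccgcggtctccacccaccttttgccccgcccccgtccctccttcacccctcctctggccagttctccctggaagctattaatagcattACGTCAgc

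The searched motifs were the AP-1 site TGACTCA, the related 8-mer TGACNTCA, the cyclic AMP element core TGACGT, the EGR site GCGNGGGCG, the TATA box TATAAA and the CArG box of serum response factor, each on both strands. A TGACNTCA match with G in the open place also holds TGACGT. The Fos window holds TGACGT 66 bases before the start, present in 7.51% of the 32851 RefSeq windows of that length, and TATAAA 33 bases before it (13.6% of windows). The Jun window holds TGACNTCA 45 bases before the start (8.83% of windows), and that of Atf3 holds TGACGT on the opposite strand, from 8 bases before the start. The Fosl2 window holds an EGR site 79 bases before the start (5.55% of windows), and Fosb holds one at 50. A CArG box (1.63% of windows) was found in 4 of the searched windows, all of them of alternative starts of Egr2. Those with the letters CCATATATGG overlap and hold the same site, and they also hold TGACGT on the opposite strand. Egr1 was not searched, and sites more than 250 bases before a start lie outside the windows. None of the searched windows of members holds TGACTCA, which 5.20% of all windows do, and Jund has none of the motifs in its window.

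Signals are MAS5 intensities as deposited, and each array had a mean of 200.0 without its lowest and highest 2% of probe sets. Differences subtract wild-type from SMRTmRID means of log2(signal + 16), so changes of low signals come out too small. A gene was tested when its mean signal exceeded the median of all values, 35.1, and called when limma gave it a Benjamini-Hochberg adjusted p under 0.05 over all 11057 genes tested. Pearson's r between arrays was 0.991 within each genotype and at most 0.861 across genotypes. The 3′ to 5′ ratio of the beta-actin control lay between 1.19 and 1.20 on the 4 arrays. The 11 fibroblast markers with a named probe set had means over the 4 arrays above the filter, with 5 higher and 5 lower (median difference 0.02). The sizes were unequal: Pdgfra and Pdgfrb rose by 4.20 and 1.78, while the greatest fall was that of S100a4 at -0.31. Thy1 passed only through SMRTmRID (13.6 on average in wild-type and 3178 in SMRTmRID). The markers' summed signal was between 83208 and 84838 in wild-type and between 95018 and 99814 in SMRTmRID.

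In SMRTmRID cells Fos was about 2-fold higher, while Jund, Fosl2, Jun and Fosl1 were lower, Jund and Fosl2 at about 51% of the wild-type signal. Junb, Atf3, Egr1 and Egr2 did not pass the test, and Fosb lay below the filter. Thus 1 of 9 tested members rose and 4 fell. Among all tested genes 30.3% rose and 35.0% fell, 65.2% in all, so a share of 55.6% called is not a result about these genes as a group. The median log2 difference over the 10 main probe sets was -0.33, against -0.05 over all tested genes. In the reported setting no member reached an absolute log2 difference of 1, which 16.5% of tested genes did. Fos reached 1.04 with a pseudocount of 1, and Fosl2 and Jund reached -1.01 and -1.06 with single arrays left out. For 7 of the 9 tested members the genotypes' signals were free of overlap, against 81.5% of all tested genes.

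**Figure D1:**
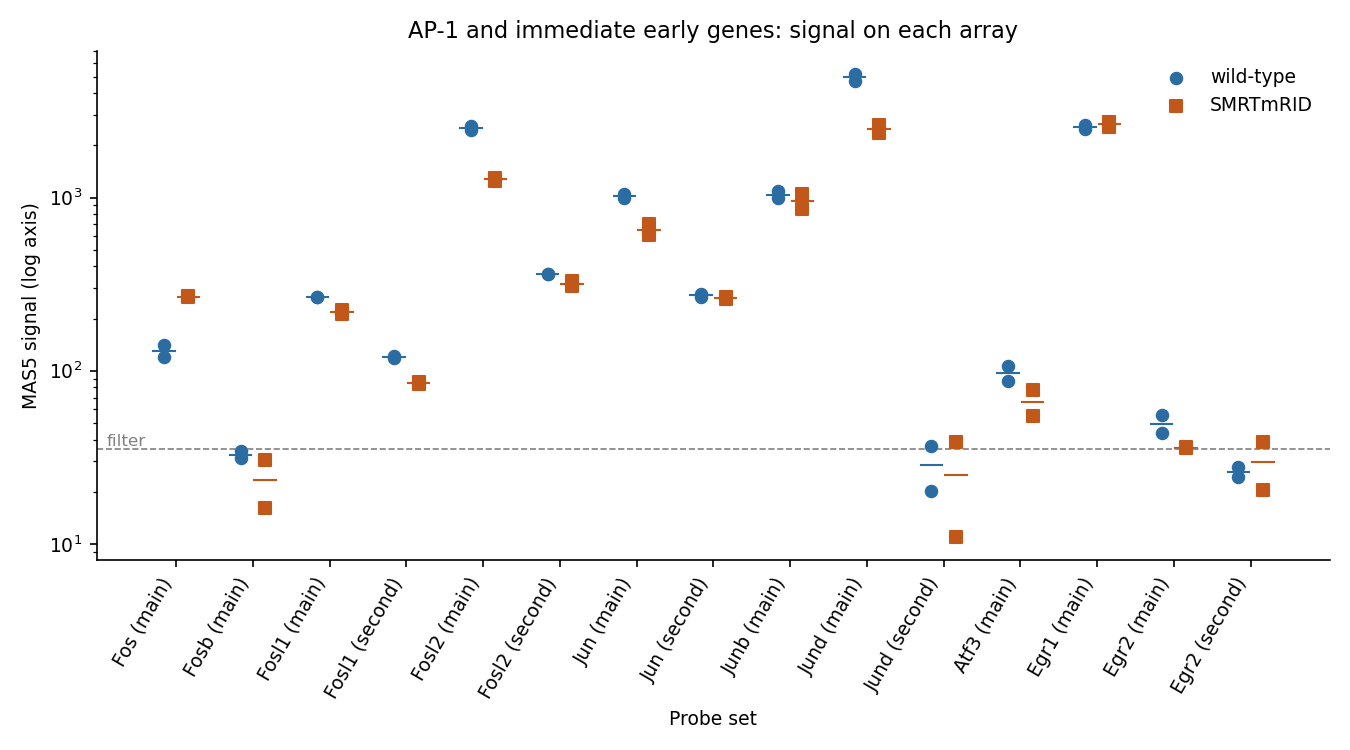
MAS5 signal (log axis) of the 15 probe sets on each array, wild-type as circles and SMRTmRID as squares, with short lines at the means of 2 arrays and a dashed line at the filter (35.1). Both SMRTmRID squares of Fos lie above the wild-type circles, and those of the main probe sets of Fosl2, Jun and Jund lie below; signals of different probe sets are not comparable as levels.

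Fos, the founding member of the FOS family and the classic serum-induced gene, was the only tested member that rose, apart from Egr1 under quantile normalization. Its probe set (1423100_at) read 141 and 120 on the wild-type arrays and 272 and 265 on the SMRTmRID arrays. Both SMRTmRID values were thus well above both wild-type values. The means were 131 ± 14.6 and 268 ± 4.78 (SD, n = 2), a ratio of 2.06. The log2 difference was 0.96 ± 0.12 (SE, limma adjusted p = 7.45e-05), with a 95% interval from 0.69 to 1.23. Of all tested genes, 17.8% differed at least as much in either direction. Fos was lowest at 0.77 with a pseudocount of 64 and highest at 1.06 without wild-type replicate 1. It passed the test in all 13 alternatives that kept it above the filter, and it was not tested where only genes above the 75th percentile of signal entered, since 202.9 exceeds its mean signal of 199.

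Fosl2, which encodes the FOS family protein FRA-2, fell on its main probe set (1437247_at). Wild-type arrays gave 2459 and 2589, SMRTmRID arrays 1249 and 1303, which is 50.6% of the wild-type mean. The gap between the genotypes was far wider than that between arrays of a genotype, which was 0.07 (log2) in wild-type and 0.06 in SMRTmRID. The log2 difference was -0.98 ± 0.05 (SE, limma adjusted p = 2.71e-07). The second probe set (1422931_at) showed less. Wild-type arrays gave 360 and 363 and SMRTmRID arrays 329 and 309, all lower but only 88.2% of the wild-type mean. Tested by itself among all 22481 probe sets above the filter, of which 59.5% were called, it had a log2 difference of -0.17 ± 0.08 (SE, limma adjusted p = 0.0966, 95% interval from -0.36 to 0.01). With the mean of both probe sets as the value of the gene, Fosl2 fell by 0.57 (limma adjusted p = 5.74e-05).

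Fosl1 encodes FRA-1, a FOS family protein often high in motile and transformed cells. Its main probe set (1417487_at) read 266 and 267 on wild-type arrays, against 213 and 224 with SMRTmRID. The SMRTmRID arrays were the lower ones without overlap, at 81.8% of the wild-type mean. This is a log2 difference of -0.27 ± 0.10 (SE, limma adjusted p = 0.0317). The second probe set (1417488_at) read 121 and 118 on wild-type arrays, against 83.6 and 85.6 with SMRTmRID, with a log2 difference of -0.43 ± 0.15 (SE, limma adjusted p = 0.0329 among all probe sets). Both probe sets thus fell. The call on the main probe set was lost without any one of the 4 arrays: the adjusted p (limma) was 0.0852 without wild-type replicate 1, 0.0914 without wild-type replicate 2, 0.114 without SMRTmRID replicate 1 and 0.0538 without SMRTmRID replicate 2, at log2 differences between -0.30 and -0.24.

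Fosb, a neuronal and stress-induced FOS gene, had a mean signal of 28.0 and was not tested. Wild-type arrays gave 34.4 and 31.2, SMRTmRID arrays 30.5 and 16.03. The SMRTmRID arrays were lower but differed from each other by 0.54 (log2), more than the log2 difference of -0.34 between the genotypes. Without the filter its adjusted p was 0.459 (limma).

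Jund, the JUN gene that is expressed most steadily in resting cells, fell about as much as Fosl2. The order of the pair turned with quantile normalization (-0.85 for Jund and -0.87 for Fosl2), without wild-type replicate 2 and without SMRTmRID replicate 1. The main probe set (1449117_at) read 4722 and 5178 on wild-type arrays and 2371 and 2633 on SMRTmRID arrays. The SMRTmRID values were 50.5% of the wild-type mean and no array overlapped. Jund had a log2 difference of -0.98 ± 0.06 (SE, limma adjusted p = 9.85e-07), with a 95% interval from -1.12 to -0.84. Among tested genes, 17.1% differed at least as much, so the size is not unusual in this comparison. The second probe set (1440265_at) lay below the filter, with 36.6 and 20.2 on wild-type and 38.9 and 11.0 on SMRTmRID arrays, and its arrays overlapped. Averaging both probe sets gave a log2 difference of -0.58 (limma adjusted p = 0.00894).

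Jun encodes c-Jun, which pairs with FOS proteins and binds its own promoter. On its main probe set (1417409_at) it read 1054 and 994 on wild-type arrays and 606 and 700.4 on SMRTmRID arrays. All SMRTmRID values were below the wild-type ones, at 63.8% of their mean. This gave a log2 difference of -0.64 ± 0.08 (SE, limma adjusted p = 5.45e-05). The second probe set (1448694_at) read 267 and 278 on wild-type arrays, against 266 and 259.7 with SMRTmRID, a much smaller gap. Its log2 difference was -0.05 ± 0.09 (SE, limma adjusted p = 0.654 among all probe sets), with a 95% interval from -0.25 to 0.15, which does not reach the difference of the main probe set. With both averaged the fall was 0.34 on the log2 scale (adjusted p = 0.00235 by limma).

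Such disagreement between probe sets is common on these arrays. More than 1 probe set passed the filter in 5356 genes, and 40.6% of them had both a called and an uncalled one, as did 2 of the 3 members of that kind, Jun and Fosl2. The range over a gene's probe sets had a median of 0.34 (log2). It was 0.59 for Jun, which 28.6% of such genes reached, 0.80 for Fosl2, which 17.2% reached, and 0.16 for Fosl1.

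**Figure D2:**
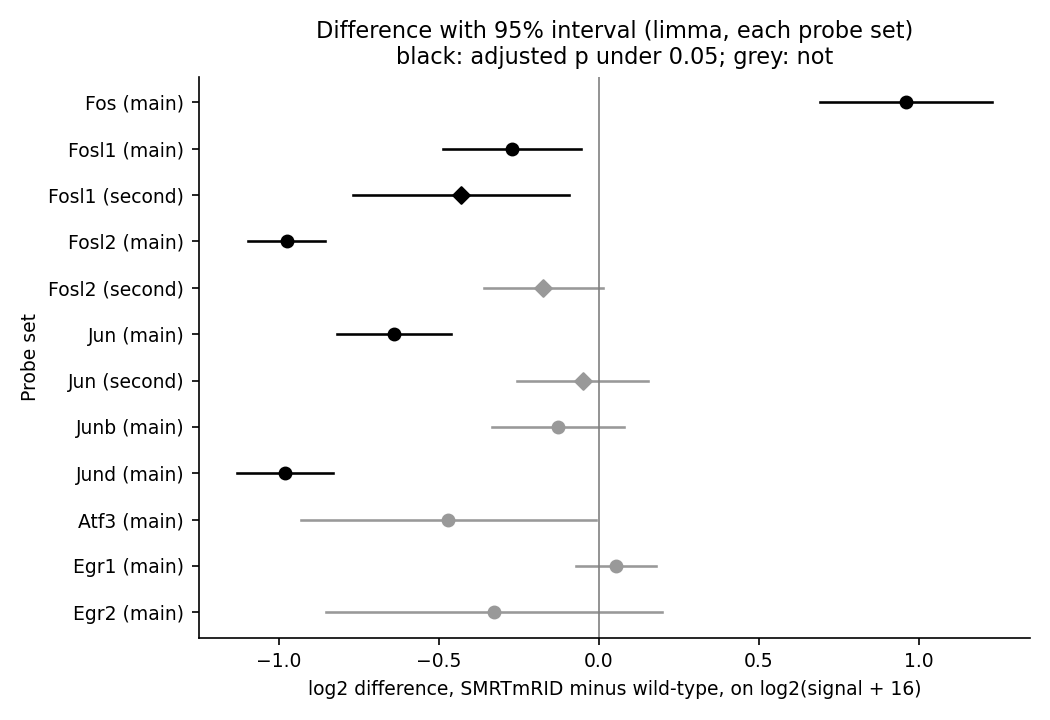
Log2 difference, SMRTmRID minus wild-type, with its 95% interval for the 12 probe sets of members above the filter, each tested by itself with limma; circles are main and diamonds second probe sets, black marks adjusted p under 0.05. The second probe sets of Jun and Fosl2 lie near 0 at -0.05 and -0.17, apart from their main probe sets at -0.64 and -0.98.

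Junb, which encodes a JUN protein that can oppose c-Jun in growth control, was close in both genotypes. Wild-type arrays gave 996 and 1084, SMRTmRID arrays 1046 and 863. The SMRTmRID arrays spanned one of the wild-type values, so the genotypes overlapped. Its log2 difference was -0.13 ± 0.09 (SE, limma adjusted p = 0.228, 95% interval from -0.32 to 0.07). One array decided its value: without SMRTmRID replicate 2 the difference was 0.01 (adjusted p = 0.931 by limma), and without SMRTmRID replicate 1 it was -0.26 and passed (adjusted p = 0.0133 by limma). A fall as large as that of Jund lies outside the interval.

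Atf3 encodes a stress-induced ATF protein that pairs with JUN proteins. The wild-type signals were 106 and 86.8, those of SMRTmRID 54.5 and 77.1. All SMRTmRID values were lower, at 68.1% of the wild-type mean, but arrays of a genotype also differed, by 0.25 (log2) in wild-type and 0.40 in SMRTmRID. The log2 difference of -0.47 ± 0.21 (SE) did not pass (limma adjusted p = 0.0711). It did pass with quantile normalization (-0.65, adjusted p = 0.0168 by limma) and without SMRTmRID replicate 2 (-0.67, adjusted p = 0.0321). Over the 13 alternatives its adjusted p reached 0.329.

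Egr1, the early growth response factor that serum induces together with Fos, had nearly the same signal in both genotypes. Wild-type arrays gave 2631 and 2477 and SMRTmRID arrays 2570 and 2729, which overlap. The log2 difference was 0.05 ± 0.05 (SE, limma adjusted p = 0.408). Its 95% interval from -0.07 to 0.17 does not include a difference as large as that of Fos. Under quantile normalization the difference was 0.18 and passed (adjusted p = 0.0117 by limma), and with single arrays left out it lay between 0.0092 and 0.0958.

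Egr2, known for its part in Schwann cells and hindbrain, was near the filter. Its main probe set (1427683_at) read 43.5 and 55.4 on wild-type arrays, against 36.2 and 35.7 with SMRTmRID. The SMRTmRID arrays were lower without overlap, yet the difference of -0.33 ± 0.25 (SE) did not pass (limma adjusted p = 0.271, 95% interval from -0.88 to 0.23). It was -0.20 without wild-type replicate 2 and -0.12 with its probe sets averaged. The second probe set (1427682_a_at) lay below the filter at 27.9 and 24.4 on wild-type and 38.8 and 20.4 on SMRTmRID arrays, and its arrays overlapped.

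**Figure D3:**
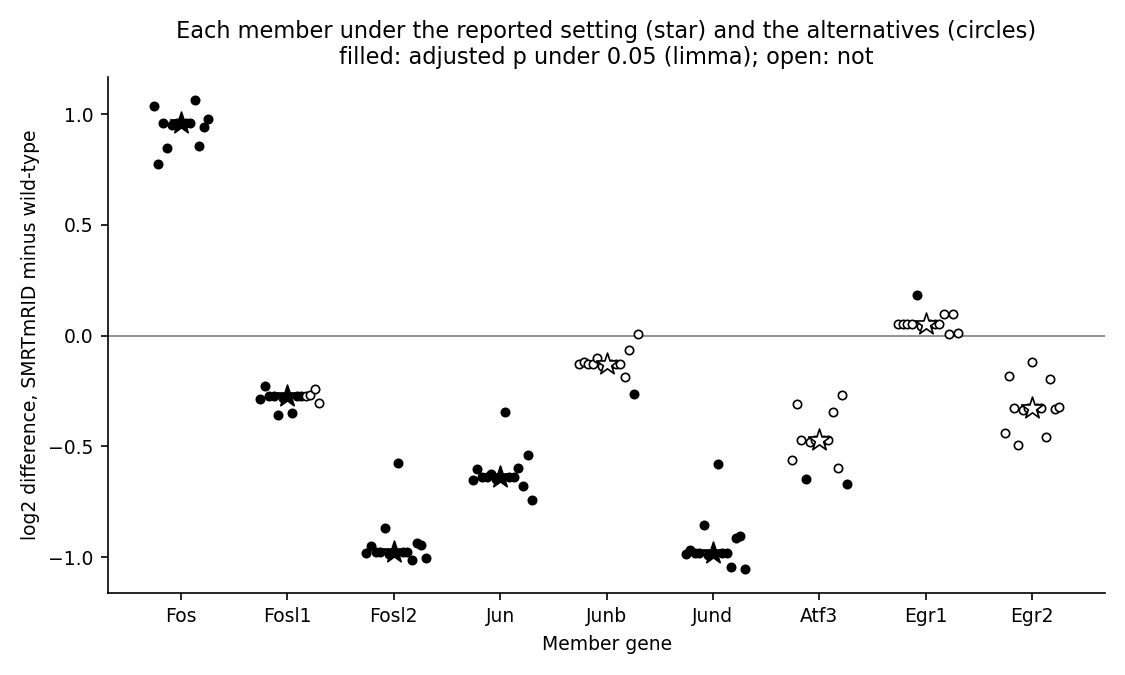
Log2 difference, SMRTmRID minus wild-type, of the 9 tested members under the reported setting (star) and up to 14 alternatives (circles), filled where the adjusted p was under 0.05 (limma). Fos stayed between 0.77 and 1.06, and the points of Fosl2 and Jund near -0.57 and -0.58 are those with a gene's probe sets averaged.

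The profiles of many other genes resembled those of these members. By the distance between log2 profiles over the 4 arrays, after subtracting each gene's mean, the genes nearest to Fos were Zmym4, Atp9a and Nemf, at distances of 0.0416, 0.0453 and 0.0469. Nearest to Jund were Fam160a2, Gtf3c1 and Meaf6, at 0.00942, 0.0256 and 0.0294. Genes with provisional symbols, such as those ending in Rik or starting with LOC, were left out of this ranking but not of the counts that follow. Within a distance of 0.2 lay 280 genes for Fos and 276 for Jund, so 4 arrays single out no particular companion.

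Partners of AP-1 and other basic leucine zipper genes went both ways. Among 18 tested genes 9 rose and 7 fell (median log2 difference 0.28), a called share of 88.9% against 65.2% of all tested genes. Of these 18, 12 lay above the 75th percentile of signal, where 76.0% of all genes were called. Crem and Maf rose by 1.12 and 1.09. Bach2 and Batf3, which encode repressors and partners of JUN or MAF proteins, rose by 2.22 and 1.28 from wild-type means of 27.9 and 25.3, which lie below the filter, and were tested only through SMRTmRID. Atf2, a partner of c-Jun, rose from 449 ± 30.1 to 856 ± 24.6 (SD, n = 2). Atf5, Mafg, Ddit3 and Nfe2l1 fell, with log2 differences of -1.29, -0.45, -0.44 and -0.39. Jdp2, a JUN-binding repressor, fell by 0.23.

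Other immediate early genes were mostly lower. Among 31 tested genes 20 fell and 8 rose (median -0.40). That is 64.5% lower against the 35.0% of all tested genes. Since 24 of the 31 lay above the 75th percentile of signal, the share in that range is also given: 42.9% of its 6834 genes were lower and 76.0% called in either direction. The greatest falls were those of the Kruppel-like factor gene Klf4 at -2.45, the kinase gene Plk2 at -1.77, the growth factor gene Hbegf at -1.77 and the matricellular gene Ccn2 at -1.59. Ier2, which serum induces along with Fos, fell from 2112 ± 48.9 to 1123 ± 42.9 (SD, n = 2), opposite in direction to Fos. Egr3 fell by 0.65. The genes with the greatest rises were Nr4a2 at 1.23, Errfi1 at 1.06, Pim1 at 0.77 and Nfkbiz at 0.54.

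Genes that act upstream of the members also went both ways. Of 20 tested kinases and cofactors of serum response factor, 8 rose and 5 fell (median 0.21), a called share of 65.0% against 65.2% of all tested genes. The kinase genes Rps6ka3, Rps6ka5, Mapk9 and Mapk8 rose by 1.82, 0.76, 0.59 and 0.50, the latter pair encoding JNK enzymes that phosphorylate c-Jun. Srf itself and its cofactor gene Mrtfa fell, with log2 differences of -0.37 and -0.67, while the related Mrtfb rose by 0.43. Map2k2 and Mapkapk2 fell too, at -0.59 and -0.56. Of 13 tested regulators of AP-1 and EGR proteins, 6 rose and 5 fell (median 0.07), a called share of 84.6%. Of these 13, 8 lay above the 75th percentile of signal, where 76.0% of all genes were called. The ERK antagonist genes Spry2, Spry4 and Dusp6 rose by 1.56, 1.29 and 0.65, and Dusp5 fell by 2.26. Spry4 in wild-type (mean 23.7) and Dusp5 in SMRTmRID (mean 16.8) lay below the filter, so these 2 differences depend on the pseudocount. Det1 and Cops5, of which the products act in c-Jun turnover, fell, with log2 differences of -1.0045 and -0.72. Itch and Cop1 of the same list rose by 0.43 and 0.15, and Fbxw7 was not called. Nab1, a corepressor of EGR proteins, rose by 0.63 and Nab2 fell by 0.22.

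Genes known as targets of AP-1 changed in both directions. All 12 tested were called, 8 of them lower and 4 higher (median -0.72). Of these, 11 lay above the 75th percentile of signal, where 76.0% of all genes were called and 42.9% were lower. Il6 and Ccl2 rose by 3.64 and 1.87. Mmp3 and Mmp13 also rose, but averaged 31.7 and 7.69 in wild-type, below the filter, and were tested only through SMRTmRID signals of 1265 and 464, so their differences of 4.78 and 4.40 depend on the pseudocount. Plaur, Hbegf, Ccnd1 and Ezr fell, with log2 differences of -1.85, -1.77, -1.30 and -1.25. Targets of EGR proteins were split, with 3 of 8 higher, 4 lower and a median of -0.12. All 8 lay above the 75th percentile of signal, and 87.5% of them were called, against 76.0% of all genes there. The lists share genes, so their counts are not separate. Nab1 and Nab2 are also counted among the regulators, Cd44 among the AP-1 targets and Fn1 among the fibroblast markers. Hbegf is counted both as an immediate early gene and as an AP-1 target. The tissue factor gene F3 rose by 1.48 and Vegfa by 1.36, whereas Cd44 and Tgfb1 fell, at -0.66 and -0.52.

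**Figure D4:**
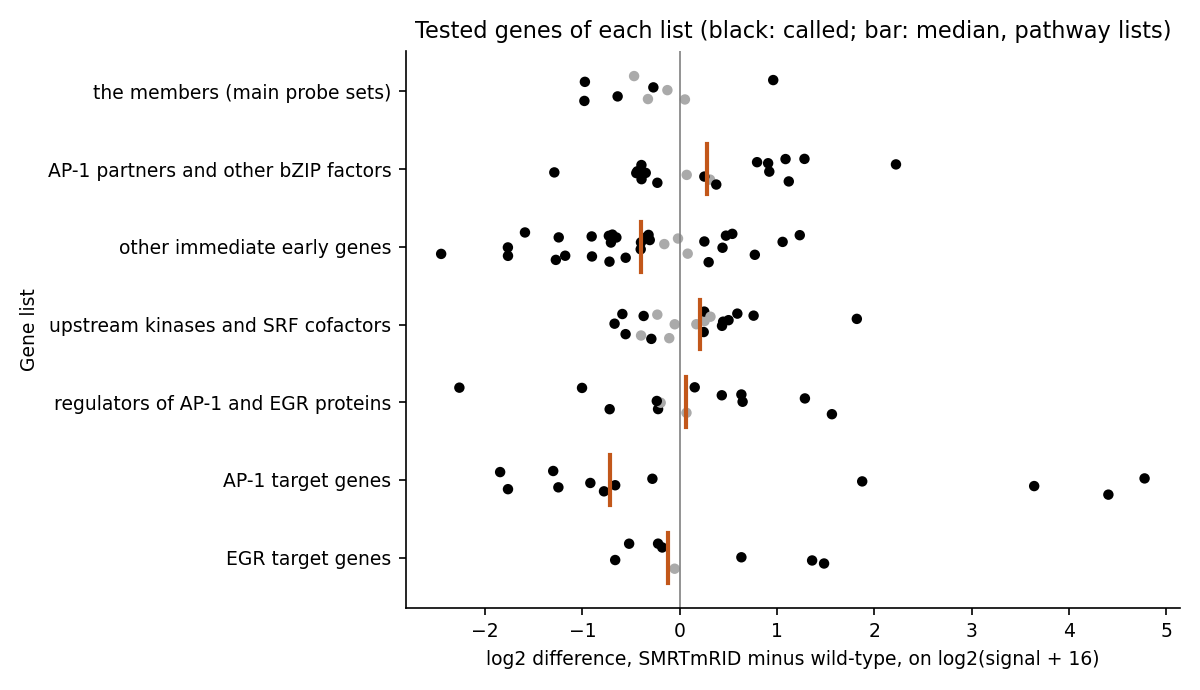
Log2 difference, SMRTmRID minus wild-type, of each tested gene of the members and of 6 pathway lists, called genes in black and uncalled in grey, with a bar at the median of each pathway list. Immediate early genes (median -0.40) and AP-1 targets (median -0.72) lie mostly left of 0, and 3 AP-1 targets lie beyond 3, of which Mmp3 and Mmp13 were below the filter in wild-type.

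Immediate early genes also respond to the handling of cells, so heat shock genes were read on the same arrays. Among 11 tested genes 6 fell and 3 rose (median -0.18). All 11 lay above the 75th percentile of signal, and 81.8% of them were called, against 76.0% of all genes there. Hspb1, Bag3, Dnajb1 and Hsph1 fell, with log2 differences of -1.28, -1.13, -0.89 and -0.76, and Hspa1b, Hsp90aa1 and Hspa1a rose by 0.73, 0.38 and 0.29. Their part in the differences of the members was not tested. Markers of other cell types differed in level. The 5 endothelial markers and the 4 adipocyte markers with a named probe set all lay below the filter, with summed signals between 73.3 and 80.5 and between 32.1 and 63.0 over all arrays. Of 7 blood cell markers 4 were above it and 2 rose, Lyz2 (21.5 in wild-type, below the filter) and Cd14 (149 and 203), and their summed signal was 332 to 547 in wild-type and 533 to 561 in SMRTmRID. Ptprc, the leukocyte marker CD45, averaged 4.01 in wild-type and 11.6 in SMRTmRID. Of 5 epithelial markers 2 were tested (sums of 253 to 294 in wild-type and 257 to 263 in SMRTmRID). Krt19 rose but passed only through SMRTmRID (5.55 in wild-type, below the filter, and 68.3 in SMRTmRID). Epcam fell (179 and 135). Cdh1 was not tested and averaged 49.1 in wild-type and 2.01 in SMRTmRID. Of 5 muscle markers Acta1 alone was tested, through its wild-type mean of 264, and it fell to 6.49, below the filter (sums of 221 to 372 and 69.1 to 71.5).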

How the data were processed

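Total RNA of 4 samples was hybridised to single-colour Affymetrix arrays, 1 array each. Per the submitters' processing notes the authors used MAS5, and the deposited values are linear intensities, 1 for each probe set on each array. Its version, scaling target and detection calls are not given in the sources used here. Of 45101 probe sets, 64 controls were left out, and 34945 of the rest had 1 gene symbol in the platform annotation, updated by gene ID to GRCm38.p6. Groups came from the sample titles.

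Signals were taken as log2(signal + 16) without further normalization and fitted with limma 3.58.1 in R 4.3.3 (lmFit, eBayes with a mean-variance trend, 4 arrays, no covariates). The fit was tested on simulated data in which a far smaller share of genes changed than was called here. That test therefore does not cover the present setting. P-values are two-sided. SE and 95% intervals are limma's moderated ones, the number of arrays limits the precision, and depth does not apply. A second fit tested every probe set by itself. The genes named are all members and up to 4 called genes with the greatest change in each direction of a list. List genes needed to describe a list are also named, as are the 3 nearest profiles among genes without a provisional symbol. Atf2, Jdp2, Ier2, Egr3 and Mrtfb were picked once their values were known. Itch, Cop1 and Fbxw7 were also named outside the rule of greatest change. So were Nab2 in the list of regulators and the untested markers Ptprc and Cdh1. The members and lists were chosen with earlier results of these data known. Alternatives were other pseudocounts, filters, normalizations, probe set rules, no variance trend, a replicate block, and leaving out single arrays. Figures were drawn with matplotlib 3.10.9.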

Additional observations from a re-analysis of the deposited data

How the results depend on the processing

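Fosl2, Jun and Jund kept their direction and their call in all 14 alternatives, and Fos in the 13 that tested it. Egr2 did not pass in any of its 13. The members called lower numbered 3 or 4 with 1 array left out, and 1 member was called higher each time. With genes above the 75th percentile alone 0 members rose, because Fos was not tested, and with quantile normalization 2 rose, Fos and Egr1 (0.18), and Atf3 passed at -0.65. Leaving out single arrays gave Fosl1 log2 differences from -0.30 to -0.24, none past the threshold, Atf3 from -0.67 to -0.27, and Junb from -0.26 to 0.0088, reversed without SMRTmRID replicate 2. The causes were not tested. The counts called in the 7 pathway and heat shock lists stayed within 1.5 times in all alternatives that were run. Testing every probe set by itself called 13365 of 22481, against 7213 of 11057 genes, as more features were tested. The labels link same-numbered arrays by their number alone. The deviations of such arrays from the genotype means correlated at 0.012 across genes, which does not show how the arrays were processed. The replicate block called 7420 genes with 1 member higher and 4 lower. Without the filter 6839 of 18193 genes passed. Signals near the filter, as for Fosb and Egr2, limit what can be read from those genes.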

Other observations

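Junos, a noncoding gene that starts next to Jun on chromosome 4 and runs on the opposite strand, was measured by 1 probe set (1456929_at). Wild-type arrays gave 49.7 and 25.1 and SMRTmRID arrays 81.9 and 72.9, higher without overlap. One of the wild-type values, 25.1, lay below the filter of 35.1. The log2 difference of Junos was 0.84 ± 0.27 (SE, limma adjusted p = 0.0194). Jun fell by 0.64 on its main probe set, but its second probe set, at -0.05, was not called. The gene was chosen after its values were seen.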
